A study of Mus musculus with 18 samples.

Results

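Expression of 4 genes was followed across B cells of the spleen and of the Peyer's patches (PPs): *Ighm*, which encodes the IgM heavy-chain constant region, *Ighd*, which encodes that of IgD, *Zfp318*, and *Fcer2a*, which encodes CD23. They were picked by gene symbol and are 4 of the 55491 genes in the count table. Female BALB/cJ mice had all been sensitized i.p. with 20 µg ovalbumin (OVA) in 1 mg alum on days 0 and 14, the PBS controls included. The mice are labelled as 10 to 12 weeks old. On days 28 and 42 they were given, i.v., 2.5 mg OVA nanoparticles (OVA NPs), 100 µg soluble OVA (sOVA) or 100 µL PBS. B cells were taken on day 44 and each tissue and treatment is represented by 3 libraries, 18 in all. No unsensitized mice are analysed here, so each comparison is between treatments of already sensitized animals.

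The B cells were enriched by magnetic depletion of other cells, with no sort for naive cells, and the libraries are therefore bulk mixtures of B cell states. Summed expression of 5 B cell identity genes was 4860 to 7768 CPM (counts scaled to library size) per library, against 70.4 to 204 CPM for 9 T cell genes and 73.8 to 333 CPM for 10 myeloid genes. The T cell genes *Cd4* and *Cd8a* had no count in at least 1 spleen library each. The neutrophil genes *S100a8* and *S100a9* had none in at least 1 PP library each, but were present in every spleen library. There they were at 4.51 to 20.4 CPM and 13.0 to 67.4 CPM. Library totals ran from 14177253 to 30052297 counts, and the lowest count of any of the 4 genes in a library was 3061, for *Zfp318*, so counting error was small beside the spread between libraries. In such bulk samples, fewer cells of a type and less RNA per cell cannot be told apart.

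IgM and IgD are made from a single primary transcript that runs from the rearranged variable region through both constant regions. Mature naive follicular B cells carry both on their surface. Splicing and polyadenylation decide which mRNA results, and ZFP318, a nuclear zinc finger protein, is required for IgD mRNA because it allows transcription to pass beyond the IgM exons. CD23 is the low-affinity receptor for IgE and a surface marker of follicular B cells. It is induced by IL-4 through STAT6, is shed by the protease ADAM10, and is low on marginal zone, germinal center (GC) and class-switched B cells.

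On the mouse assembly GRCm38, *Ighm* (ENSMUSG00000076617) lies on the minus strand at chr12:113418558-113422730 and *Ighd* (ENSMUSG00000104213) at chr12:113406604-113416324, with 2233 bp between them. *Zfp318* (ENSMUSG00000015597) lies on the plus strand at chr17:46383731-46420920, and *Fcer2a* (ENSMUSG00000005540) on the minus strand at chr8:3681737-3694175. Counts were assigned to whole genes, so the membrane and secreted forms of *Ighm* and the alternative starts of *Fcer2a* were not separated. No annotated exon of another gene overlapped an exon of the 4 genes.

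The promoters of *Fcer2a* and *Zfp318* are shown because these genes moved together in the comparisons that follow. Each window is from RefSeq on GRCm38.p6, covers 250 bases before and 50 after an annotated start, and is written 5′ to 3′ on the gene's own strand. The windows were searched on both strands for a STAT6 motif (TTC and GAA separated by 4 bases of any kind), an RBPJ motif (TGGGAA, the Notch effector's core site) and a TATA box (TATAAA). Capitals mark the matches. Of the 3 *Fcer2a* windows in the table, 2 are shown, and the other inner start, chr8:3690341-3690640, held only an RBPJ match, at position -205.
Fcer2a, outermost start, chr8:3694125-3694424, minus strand: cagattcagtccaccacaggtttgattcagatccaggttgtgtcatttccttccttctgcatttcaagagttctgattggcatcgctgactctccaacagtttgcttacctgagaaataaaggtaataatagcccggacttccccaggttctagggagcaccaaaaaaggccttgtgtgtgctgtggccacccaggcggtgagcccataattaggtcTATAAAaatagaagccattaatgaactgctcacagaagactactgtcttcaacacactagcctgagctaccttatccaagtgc
Fcer2a, inner start with a STAT6 match, chr8:3690812-3691111, minus strand: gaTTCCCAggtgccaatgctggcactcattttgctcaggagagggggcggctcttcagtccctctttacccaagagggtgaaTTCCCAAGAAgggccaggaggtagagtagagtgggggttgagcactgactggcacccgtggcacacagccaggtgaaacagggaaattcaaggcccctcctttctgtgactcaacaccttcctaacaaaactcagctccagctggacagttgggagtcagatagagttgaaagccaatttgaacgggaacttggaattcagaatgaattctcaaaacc
Zfp318, chr17:46383516-46383815, plus strand: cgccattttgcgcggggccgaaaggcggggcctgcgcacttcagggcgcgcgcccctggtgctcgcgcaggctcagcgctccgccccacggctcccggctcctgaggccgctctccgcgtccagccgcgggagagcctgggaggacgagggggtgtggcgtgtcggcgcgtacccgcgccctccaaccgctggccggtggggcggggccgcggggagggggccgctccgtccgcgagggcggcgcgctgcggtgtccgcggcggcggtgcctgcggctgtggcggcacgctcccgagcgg
The outermost *Fcer2a* window held a TATA box at position -33 relative to the start. The inner window shown held a STAT6 match at position -168, whose first bases also matched the RBPJ motif on the other strand, and a further RBPJ match at position -248. Among 32851 RefSeq promoter windows of this length, 6.95% held the STAT6 motif, 25.6% the RBPJ motif and 13.6% the TATA box. The *Zfp318* window held none of the 3 motifs and was 80% G+C, with an observed-to-expected CpG ratio of 1.03 against 0.191 in the outermost *Fcer2a* window. A match describes letters only, not a bound site.

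All 4 genes were lower in PP than in splenic B cells, and within the PPs they were lowest in sOVA-treated mice. Per kilobase of exon, PBS spleen expressed *Ighm* at 2100 ± 167 CPM/kb (SD, n = 3 here and for all group values), *Ighd* at 824 ± 20.5, *Fcer2a* at 366 ± 15.9 and *Zfp318* at 39.7 ± 0.886. In the PPs of sOVA-treated mice the same order held, at 792 ± 34.4, 164 ± 28.2, 90.9 ± 16.3 and 9.58 ± 0.768 CPM/kb. The range from the highest to the lowest library was smaller for *Ighm*, at 1.61 on the log2 scale, than for *Ighd* (2.58), *Fcer2a* (2.28) and *Zfp318* (2.22).

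**Figure D1:**
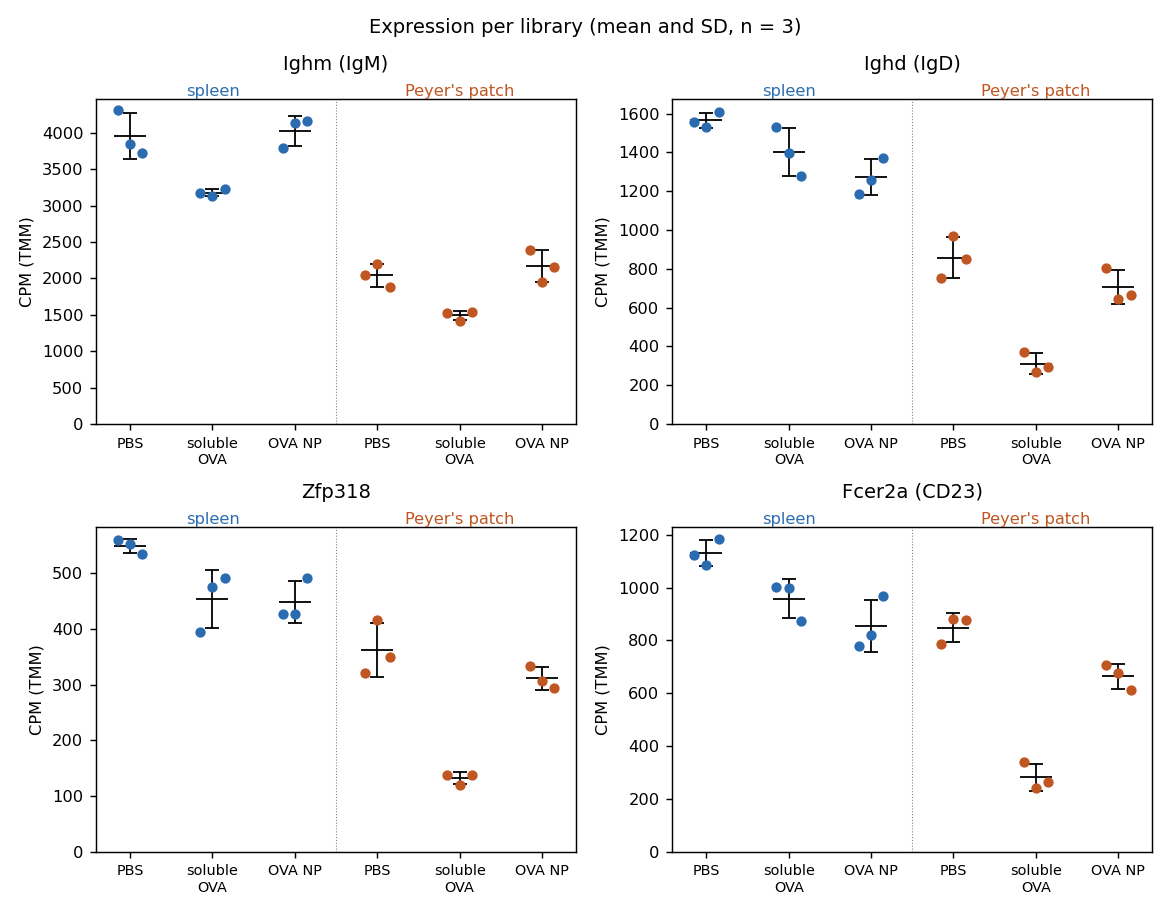
Expression of *Ighm*, *Ighd*, *Zfp318* and *Fcer2a* in CPM (vertical axis, from 0) in each of the 18 libraries, by tissue and treatment (horizontal axis), with the mean and SD of 3 libraries. For *Ighd*, *Zfp318* and *Fcer2a* the sOVA-treated PP libraries lie below every other library, with means of 311, 132 and 281 CPM, while *Ighm* in spleen is lowest after sOVA, at 3179 CPM.

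In spleen, *Ighm* was at 4319, 3841 and 3723 CPM in the 3 PBS libraries, 3793, 4131 and 4168 in the OVA NP libraries and 3176, 3134 and 3226 in the sOVA libraries. The OVA NP and PBS libraries overlapped, and all sOVA libraries lay below both. *Ighd* was at 1559, 1530 and 1608 CPM after PBS, 1188, 1256 and 1371 after OVA NP and 1529, 1399 and 1278 after sOVA. Here the OVA NP libraries lay below all controls, whereas the highest sOVA library reached to just under the lowest control.

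*Zfp318* in spleen was at 558, 553 and 535 CPM after PBS, 427, 426 and 491 after OVA NP and 393, 475 and 490 after sOVA. *Fcer2a* was at 1124, 1084 and 1182 CPM after PBS, 780, 820 and 966 after OVA NP and 1003, 998 and 873 after sOVA. For both genes every library of a mouse given OVA in either form lay below every PBS library, and the OVA NP and sOVA libraries overlapped. Of all genes tested in the spleen, 18.3% lay without overlap below PBS after OVA NP and 18.4% after sOVA.

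In the PPs, *Ighm* was at 2045, 2204 and 1889 CPM after PBS, 2392, 1950 and 2154 after OVA NP and 1520, 1420 and 1542 after sOVA. *Ighd* was at 753, 969 and 853 CPM after PBS, 805, 643 and 666 after OVA NP and 371, 268 and 293 after sOVA. For both constant regions, OVA NP and PBS libraries overlapped and all sOVA libraries lay lower.

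*Zfp318* in the PPs was at 321, 416 and 350 CPM after PBS, 334, 305 and 294 after OVA NP and 138, 120 and 138 after sOVA. *Fcer2a* was at 785, 881 and 879 CPM after PBS, 705, 677 and 613 after OVA NP and 338, 243 and 263 after sOVA. *Fcer2a* was the only one of the 4 for which the OVA NP libraries of the PPs did not overlap with the controls, and 10.1% of all genes had OVA NP libraries wholly below the controls. After sOVA all 4 genes lay wholly below the controls, as did 24.0% of all genes.

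Placed in order of their means, the 6 groups ran alike for *Ighd*, *Zfp318* and *Fcer2a*: spleen PBS, spleen sOVA, spleen OVA NP, PP PBS, PP OVA NP and PP sOVA. Spleen sOVA and spleen OVA NP overlapped for all 3 genes. PP PBS and PP OVA NP overlapped for *Ighd* and *Zfp318*, and spleen OVA NP overlapped PP PBS for *Fcer2a*. *Ighm* ran differently, with spleen OVA NP and spleen PBS at the top and overlapping (4031 ± 207 and 3961 ± 316 CPM), then spleen sOVA, then PP OVA NP and PP PBS, again overlapping (2165 ± 221 and 2046 ± 158 CPM), and PP sOVA last.

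The effect of OVA NPs on these genes in the spleen was compared with PBS first. *Ighd* fell by 0.29 on the log2 scale (SE 0.06, edgeR adjusted p = 0.00352), *Zfp318* by 0.29 (SE 0.06, adjusted p = 0.00396) and *Fcer2a* by 0.40 (SE 0.07, adjusted p = 0.0017). *Ighm* differed by 0.03 (SE 0.07, adjusted p = 0.8), with a 95% interval of -0.12 to 0.18. Thus 3 of the 4 genes were lower differentially expressed genes (DEGs), defined as an edgeR adjusted p under 0.05 with a log2 fold change beyond 0.25 either way, against 6.35% of the 14200 genes tested. The mRNA of IgD and not of IgM was lower, although both arise from a shared transcript. Of 8 tested plasma cell genes, 4 were higher DEGs here, against 8.60% of all genes, and 0 were lower (median 0.525). After sOVA in spleen 4 of 8 were also higher than after PBS, against 10.5%, and 1 was lower (median 0.523). Summed, the plasma cell list was 757 to 773 CPM after OVA NP, 486 to 560 after PBS and 633 to 718 after sOVA. Within it, *Jchain* was at 309 ± 20.1, 112 ± 30.3 and 232 ± 30.2 CPM in the same order. The part of plasma cells in the *Ighm* values, which include the secreted form, was not tested.

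Soluble OVA in the spleen was next compared with PBS. *Ighm* fell by 0.32 (SE 0.08, edgeR adjusted p = 0.0107) and *Zfp318* by 0.27 (SE 0.08, adjusted p = 0.0308), so 2 of 4 were lower DEGs against 6.72% of all tested genes. *Fcer2a* differed by -0.24 (SE 0.07, adjusted p = 0.0367), short of the fold limit, and *Ighd* by -0.16 (SE 0.08, adjusted p = 0.157). Some of these calls rested on single libraries. The *Ighm* difference was -0.24 (adjusted p = 0.099) without PBS replicate 1, and the *Zfp318* call was lost without any 1 of the PBS libraries or sOVA replicate 1, where the difference was -0.29 to -0.17. This comparison and the preceding one share their PBS libraries.

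OVA NPs and sOVA were compared directly in the spleen to ask whether the form of the antigen mattered. None of the 4 genes passed the edgeR test, in a comparison where 0.238% of all genes did. 1 of 4 had an unadjusted p under 0.05 and 1 of 4 passed with DESeq2, in both cases *Ighm*. *Ighm* was 0.35 higher after OVA NP (SE 0.08, unadjusted p = 0.000867, adjusted p = 0.149), with no overlap between the groups, as for 6.96% of genes in that direction. DESeq2 gave an adjusted p of 4.01e-07 for it. The differences for *Ighd*, *Zfp318* and *Fcer2a* had 95% intervals of -0.32 to 0.05, -0.22 to 0.19 and -0.36 to 0.04.

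In the PPs, all 4 genes were lower after sOVA than after PBS, with *Fcer2a* at 0.328, *Ighd* at 0.359 and *Zfp318* at 0.362 of the control level. *Fcer2a* fell by 1.61 (SE 0.12, edgeR adjusted p = 9e-05), *Ighd* by 1.48 (SE 0.13, adjusted p = 0.000196), *Zfp318* by 1.46 (SE 0.10, adjusted p = 8.22e-05) and *Ighm* by 0.47 (SE 0.08, adjusted p = 0.00238). That is 4 of 4 lower DEGs against 13.9% of the 15792 genes tested. By p-value *Zfp318* was 29th and *Fcer2a* 80th of them. Removal of any library, or DESeq2 in place of edgeR, left all 4 calls standing, with *Fcer2a* between -1.73 and -1.46.

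With OVA NPs, none of the 4 genes passed the edgeR test against PBS in the PPs. Their differences were -0.34 for *Fcer2a* (SE 0.09, edgeR adjusted p = 0.285), -0.27 for *Ighd* (SE 0.12, adjusted p = 0.513), -0.20 for *Zfp318* (SE 0.11, adjusted p = 0.548) and 0.10 for *Ighm* (SE 0.10, adjusted p = 0.758). No gene at all passed in this comparison (0% of 15798), while 1573 genes had an unadjusted p under 0.05 and DESeq2 called 150. Among the 4 genes, 1 had an unadjusted p under 0.05 (*Fcer2a*, edgeR unadjusted p = 0.00372, adjusted p = 0.285) and 0 passed with DESeq2. The OVA NP libraries of the PPs also had a higher mitochondrial share of counts, 9.08 to 9.80%, than the PBS libraries, 5.41 to 7.67%, and the part of this in the values was not tested.

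The direct comparison of the 2 OVA treatments in the PPs again included all 4 genes. After OVA NP, *Fcer2a* was 1.25 higher than after sOVA (SE 0.15, edgeR adjusted p = 0.000791), *Zfp318* 1.25 higher (SE 0.10, adjusted p = 0.000256), *Ighd* 1.19 higher (SE 0.16, adjusted p = 0.00154) and *Ighm* 0.55 higher (SE 0.10, adjusted p = 0.00415). 4 of 4 were higher DEGs, against 13.8% of all tested genes, and every OVA NP library lay above every sOVA library, as for 23.1% of them. These values rest on the same sOVA libraries as the comparison with PBS. The 2 groups also differed in their mitochondrial share of counts, 9.08 to 9.80% after OVA NP and 4.97 to 6.02% after sOVA. Of the T cell list 6 of 9 genes were higher after OVA NP and 1 lower (median 1.42), against 13.8% and 16.3% of all genes. The higher ones ran from *Cd4*, at 3.63 ± 0.859 CPM after OVA NP, to *Il7r*, at 47.3 ± 7.58. Against the same shares, 4 of 8 tested myeloid genes were higher (summed list 164 to 248 CPM against 104 to 113). Of 5 dendritic cell genes 4 were higher and 1 lower. The part of these in the 4 genes' differences was not tested.

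**Figure D2:**
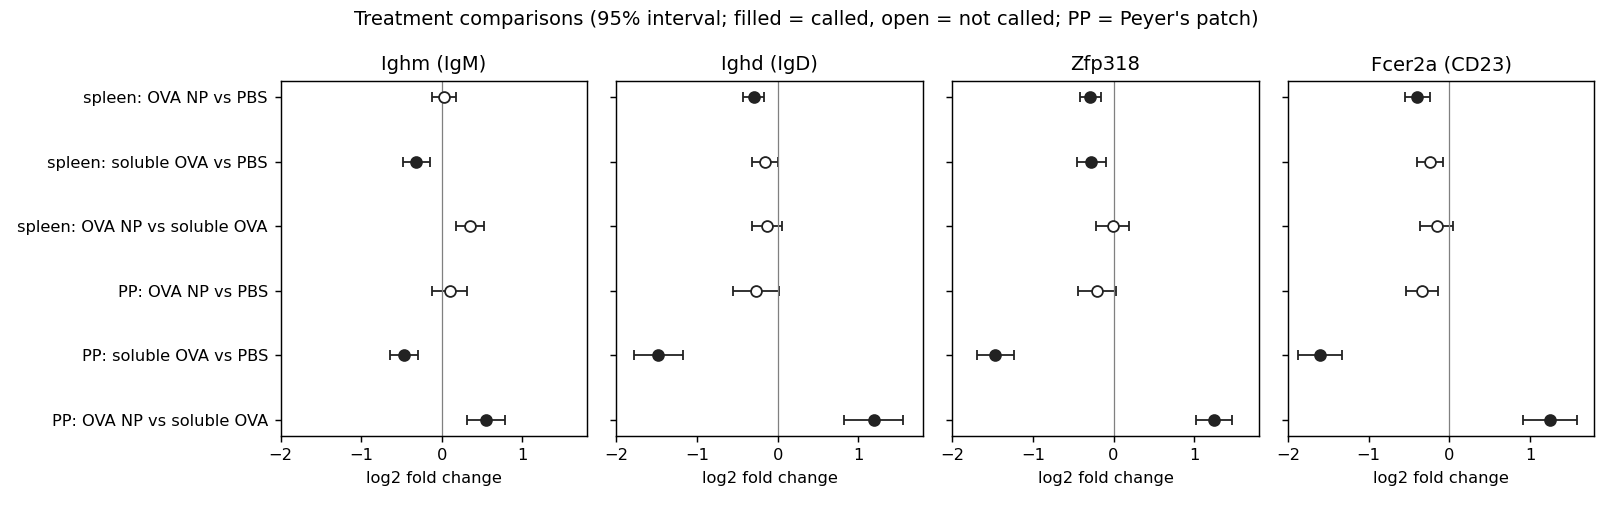
Log2 fold change (horizontal axis) of each gene in the 6 treatment comparisons within spleen and PP (vertical axis), with 95% intervals; filled points passed the edgeR test and fold limit. The PP comparisons with sOVA stand far from 0 for *Ighd*, *Zfp318* and *Fcer2a* (-1.48, -1.46 and -1.61 against PBS), and *Ighm* in spleen is near 0 for OVA NP (0.03).

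Whether the treatments acted differently in the 2 tissues was tested as an interaction. The sOVA effect was lower in PP than in spleen by 1.31 for *Ighd*, 1.18 for *Zfp318* and 1.36 for *Fcer2a* on the log2 scale (SE 0.16, 0.14 and 0.15, edgeR adjusted p = 0.000246, 0.000169 and 9.06e-05). For *Ighm* the difference was -0.14 (SE 0.11, adjusted p = 0.525), with a 95% interval of -0.39 to 0.10. So 3 of 4 genes had a sOVA effect that was lower in PP, against 5.07% of all genes. For OVA NPs, 0 of 4 passed, against 4.42% of all genes. None of the 4 had an unadjusted p under 0.05 there and none passed with DESeq2, and the differences between tissues lay from 0.04 for *Ighd* (95% interval -0.27 to 0.34) to 0.10 for *Zfp318* (-0.17 to 0.37).

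The tissues themselves differed for every gene under every treatment. In PBS controls, PP B cells differed from splenic B cells by -0.94 for *Ighm* (SE 0.07, edgeR adjusted p = 7.26e-06), by -0.85 for *Ighd* (SE 0.08, adjusted p = 2.29e-05), by -0.58 for *Zfp318* (SE 0.08, adjusted p = 0.000238) and by -0.40 for *Fcer2a* (SE 0.07, adjusted p = 0.000696). All 4 were lower DEGs, against 20.1% of all genes. After sOVA the differences were -2.17 for *Ighd*, -1.78 for *Zfp318*, -1.77 for *Fcer2a* and -1.09 for *Ighm*, again 4 of 4, against 24.3% of all genes. After OVA NP the differences were -0.85 for *Ighm*, -0.80 for *Ighd*, -0.48 for *Zfp318* and -0.31 for *Fcer2a*, 4 of 4 against 15.1%. The last of these had an adjusted p of 0.0231 and fell short of a call without spleen replicate 3, PP replicate 2 or PP replicate 3, where it was -0.23 to -0.31. Mitochondrial counts were 2.82 to 3.41% of the total in spleen and 4.97 to 9.80% in PP libraries. Of 5 B cell identity genes, 3 were also lower in PP after PBS (median -0.29), 4 after sOVA (-0.39) and 3 after OVA NP (-0.315), with 0 higher. In PBS controls 11 of 11 GC genes (median 4.60) and 7 of 7 tested T cell genes were higher in PP, against 25.5% of all genes. The part of these in the tissue differences was not tested.

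**Figure D3:**
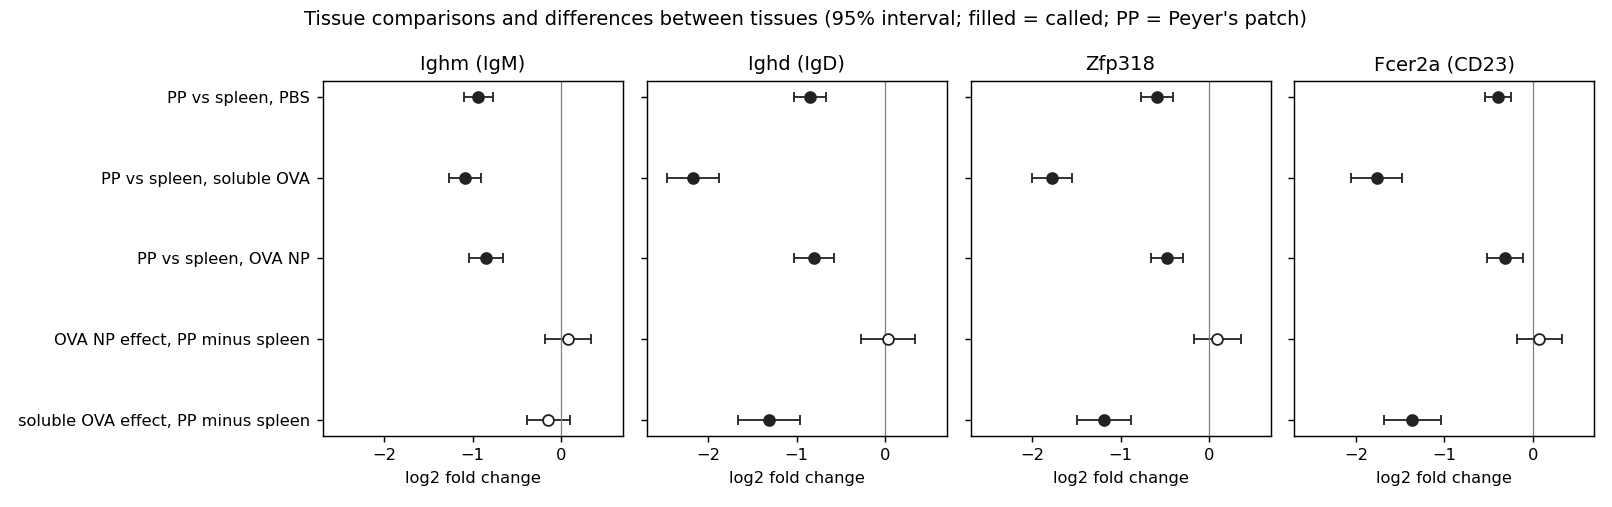
Log2 fold change of PP against spleen under each treatment, and the difference between tissues in each treatment effect (horizontal axis, with 95% intervals), for the 4 genes; filled points passed the edgeR test. All 12 tissue differences lie below 0, and the sOVA effect differs between tissues for *Ighd*, *Zfp318* and *Fcer2a* but not past the test for *Ighm* (-0.14).

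Since *Ighd* and *Ighm* come from a shared transcript, their counts were also set against each other within each library, which needs no scaling between libraries. Per 100 *Ighm* counts, there were 36.1, 39.8 and 43.2 *Ighd* counts in PBS spleens, 48.1, 44.6 and 39.6 after sOVA and 31.3, 30.4 and 32.9 after OVA NP. In the PPs there were 36.8, 44.0 and 45.2 after PBS, 24.4, 18.9 and 19.0 after sOVA and 33.6, 33.0 and 30.9 after OVA NP. The PBS ranges of the 2 tissues overlapped, the OVA NP libraries lay below the controls in both tissues, and the sOVA libraries overlapped the controls in spleen but lay at less than all others in PP.

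As log2 differences, the ratio was lower after OVA NP than after PBS by -0.33 in spleen (SE 0.08) and by -0.36 in PP (SE 0.10), and after sOVA it differed by 0.15 in spleen (SE 0.11) and by -1.02 in PP (SE 0.15). Between the OVA treatments it was -0.48 in spleen (SE 0.09) and 0.66 in PP (SE 0.13), OVA NP minus sOVA. Each comparison of non-overlapping groups reached the smallest p that 3 against 3 libraries allow (exact two-sided permutation test, p = 0.1, adjusted p = 0.117 over 7 tests), and spleen sOVA against PBS gave p = 0.3 by the same exact test. These tests cannot reach 0.05. PP against spleen within treatment differed by -0.32, averaged over the treatments in 18 libraries (exact permutation test, p = 0.0848, adjusted p = 0.117). Only after sOVA was the mean log2 ratio lower in PP than in spleen, at -2.28 against -1.18. It was -1.26 in PP against -1.34 in spleen after PBS, and -1.62 against -1.67 after OVA NP.

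*Ighm* and *Ighd* together also took different shares of all heavy-chain constant region counts. They made up 97.72 to 98.70% in PBS spleens, 90.59 to 92.26% after OVA NP and 84.89 to 89.78% after sOVA. In PP the shares were 60.49 to 68.70%, 56.87 to 61.57% and 34.46 to 39.99% in the same order. The rest were counts of the class-switched constant regions.

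**Figure D4:**
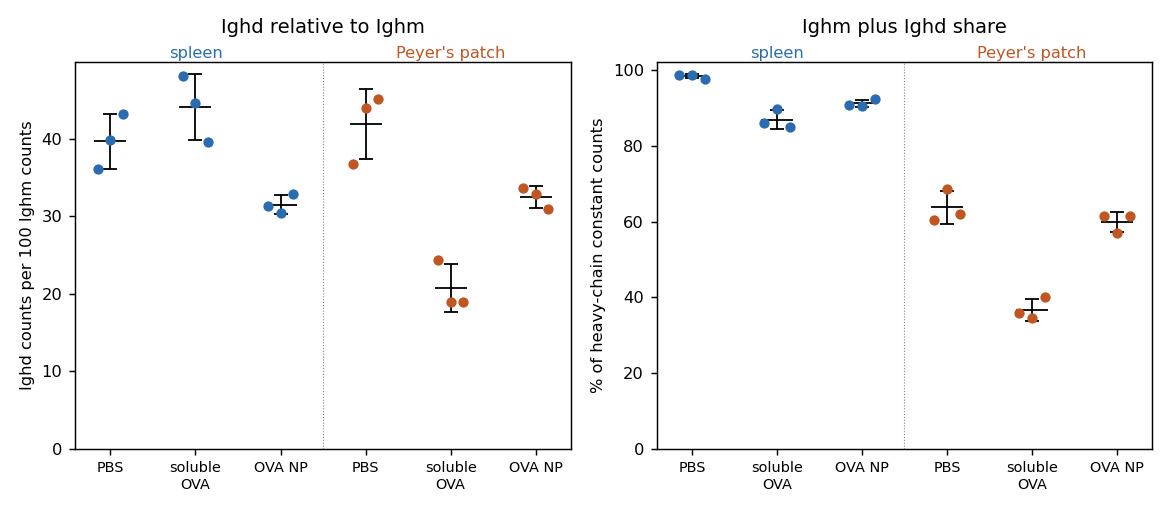
Left, *Ighd* counts per 100 *Ighm* counts, and right, *Ighm* plus *Ighd* as a percentage of heavy-chain constant region counts (vertical axes, from 0), in each library by tissue and treatment, with mean and SD of 3 libraries. Both are lowest in sOVA-treated PPs, at 18.9 to 24.4 *Ighd* counts and 34.46 to 39.99%.

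Other genes of heavy-chain RNA processing were examined beside *Zfp318*, as a list of 12 elongation, cleavage and splicing factors. Relative to PBS, *Eaf2*, a partner of the ELL elongation factors, rose by 2.40 in spleen after OVA NP (SE 0.16, edgeR adjusted p = 8.13e-07) and by 2.74 after sOVA (SE 0.19, adjusted p = 2.19e-06). In the same order, a list of 11 GC genes rose by medians of 2.51 and 2.99. The part of GC cells in the *Eaf2* rise was not tested. *Ell2*, the elongation factor that favors the secreted form of heavy-chain mRNA in plasma cells, rose by 0.30 (SE 0.05) and 0.27 (SE 0.07). In spleen 2 of 12 genes were higher DEGs after OVA NP and 4 of 12 after sOVA, *Cstf3* and *Snrpa* being the others, against 8.60% and 10.5% of all genes, and none were lower. *Zfp318*, which extends the transcript to *Ighd*, was lower in the same comparisons in which *Ell2* was higher.

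In the PPs after sOVA, 8 of the 12 were higher, against 13.5% of all genes, and 1 lower, with a median of 0.29 against -0.02 over all genes. The cleavage factors *Cstf3* (0.57), *Cstf2* (0.26) and *Cstf1* (0.26), the elongation factors *Eaf2* (0.57), *Ell2* (0.39) and *Eaf1* (0.36) and the RNA-binding *Ptbp1* (0.32) and *Snrpa* (0.32) rose, and *Pcf11*, a termination factor, fell by 0.29. The fall of *Zfp318* by 1.46 was larger in size than any of these changes.

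CD23 was set beside a list of 14 genes for its ligands, its protease and the signals that induce it. In PP B cells after sOVA, 7 of 14 were lower DEGs and 0 were higher, against 13.9% and 13.5% of all genes, with a median of -0.42 against -0.02 over all genes. *Notch2*, the receptor that directs marginal zone fate, fell by 1.12 (SE 0.11, edgeR adjusted p = 0.000216), and *Cr2*, a CD23 ligand also known as CD21, fell by 0.70. The IL-4 receptor chains *Il2rg* and *Il4ra* fell by 0.93 and 0.74, the signal transducer *Stat6* by 0.45, *Cd40*, the receptor for T cell help, by 0.63 and the integrin chain *Itgax* by 0.73.

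The protease gene *Adam10* differed by 0.05 and *Pax5*, the B cell identity factor, by -0.10 (adjusted p = 0.72 and 0.426). *Rbpj* differed by -0.39 and missed the test (adjusted p = 0.0683). Between OVA NP and sOVA in the PPs the same 7 of 14 genes were higher after OVA NP, against 13.8% of all genes, and none lower, from 0.38 for *Cd40* to 1.13 for *Notch2*. In the PPs after sOVA, *Fcer2a* was lower in the same libraries as the mRNA of the IL-4 receptor chains, *Stat6* and *Notch2*. A link between these falls was not tested.

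In spleen, *Ighe*, which encodes the IgE heavy chain that CD23 binds, rose by 2.26 after OVA NP and by 2.28 after sOVA while *Fcer2a* was lower. After OVA NP, 4 of 14 genes of the list were lower, against 6.35% of all genes: *Il13ra1* (-1.01), *Itgax* (-0.71), *Cd40* (-0.30) and *Notch2* (-0.28). After sOVA 6 of 14 were lower, against 6.72%, again with *Il13ra1* (-1.18), *Itgax* (-0.96) and *Notch2* (-0.40), together with *Itgam* (-1.11), *Cr2* (-0.27) and *Stat6* (-0.26). *Il4ra* and *Il2rg* did not pass in spleen, and *Il13ra1* was low there, with group means of 1.07 to 2.49 CPM. By the interaction test, the sOVA effect was lower in PP than in spleen for 5 of 14 genes, against 5.07% of all genes, and higher for 0. These were *Il2rg* (-0.74), *Notch2* (-0.72), *Il4ra* (-0.65), *Cd40* (-0.38, edgeR adjusted p = 0.0489) and *Ighe* (-1.99), beside *Fcer2a* itself (-1.36). *Ighe* had risen in spleen and differed by 0.27 in the PPs (edgeR adjusted p = 0.66), whereas *Fcer2a* had fallen in the PPs. In the PPs *Ighe* was low, at a mean of 0.92 CPM after PBS and 1.08 CPM after sOVA. *Itgam* and *Itgax* are also expressed by myeloid and dendritic cells, and the summed myeloid list was 134 to 333 CPM in PBS spleens, 82.9 to 294 after OVA NP and 73.8 to 154 after sOVA.

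**Figure D5:**
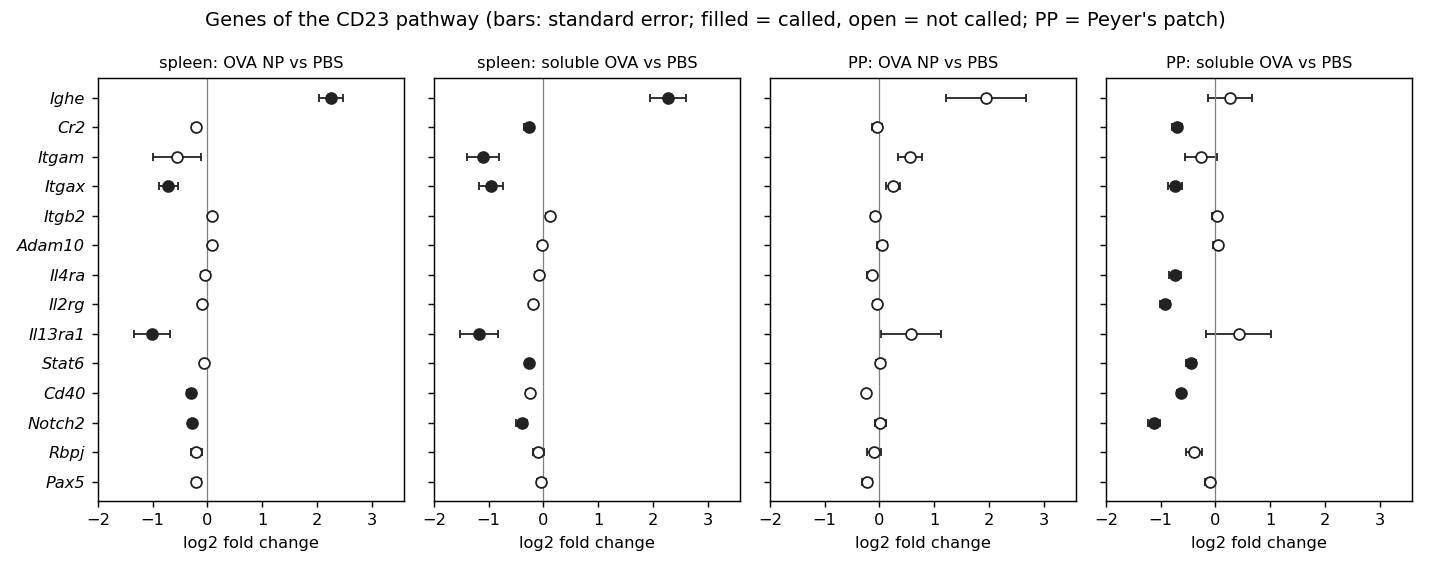
Log2 fold change against PBS (horizontal axis, bars show the standard error) of the 14 genes of the CD23 list in spleen and PP after OVA NP or sOVA; filled points passed the edgeR test and fold limit. In the PPs after sOVA 7 genes are filled and below 0, from *Notch2* at -1.12 to *Stat6* at -0.45, and in the PPs after OVA NP none is filled.

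Markers of B cell states moved with these results. In the PPs after sOVA, summed expression of 11 GC genes was 3165 to 3263 CPM per library, against 1831 to 2134 after PBS and 1396 to 2048 after OVA NP, and 10 of 11 were higher than in PBS, against 13.5% of all genes, among them *Nuggc* (1.16) and *Efnb1* (1.05). Of 15 genes of naive follicular B cells 13 were lower, against 13.9% of all genes, and 1 higher, led by *Ccr7* (-2.37), *Klf2* (-1.86) and *Gpr183* (-1.71), which guide the recirculation and positioning of naive cells. The summed T cell list, 174 to 193 CPM, lay within the PBS range of 173 to 204 CPM, but most of the sum was *Lck*, at 153 ± 9.42 CPM after sOVA and 145 ± 11.7 after PBS. *Cd3e*, a defining T cell gene, was at 1.51 ± 0.547 and 2.81 ± 0.866 CPM in the same order. Of the 9 genes 1 was lower (*Il7r*, -0.73) and 0 higher, with a median of -0.40. The summed myeloid list was at 104 to 113 CPM after sOVA, wholly below the PBS range of 125 to 172. The part of these other cells in the results was not tested.

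In spleen the summed GC genes were at 143 to 244 CPM after PBS, 490 to 565 after OVA NP and 540 to 785 after sOVA, and 8 of 15 naive follicular genes were lower after each treatment, against 6.35% and 6.72% of all genes, while 1, *Gpr183*, was higher after sOVA (0.35). The part of the cell mixture in the falls of *Ighd*, *Zfp318* and *Fcer2a* was not tested.

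The genes whose pattern over the 18 libraries lay closest to each of the 4 were found by the root mean square (RMS) difference of log2 CPM after each gene was centered on its own mean. Closest to *Fcer2a* were *S1pr1* (RMS 0.114), *Mapk12* (0.126), *Gimap6* (0.133), *Adgre5* (0.138) and *Itgb7* (0.14). Closest to *Zfp318* were *Dstyk* (0.0888), *Zmynd11* (0.099), *Peg13* (0.11), *Gpr174* (0.113) and *Cdkn1b* (0.123). These values describe likeness over libraries that share tissue and treatment, and carry no test.

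For *Ighd* the closest were *Cnn3* (RMS 0.0904), *Rnf144a* (0.13), *Grap2* (0.13), *Irak3* (0.132) and *Rin3* (0.14), and for *Ighm* they were *Zfp397* (0.125), *Irf9* (0.127), *Irf1* (0.13), *Sft2d3* (0.133) and *Mtap* (0.141). Among the 4 genes themselves, *Zfp318* was 7th closest to *Fcer2a* of 8874 genes ranked (RMS 0.152) and 38th closest to *Ighd* of 8875 (RMS 0.213). *Ighm* was 254th closest to *Ighd* (RMS 0.385). Seen from *Ighm*, *Zfp318* was closest of the other 3 (RMS 0.33, rank 918), before *Ighd* (rank 1519) and *Fcer2a* (RMS 0.399, rank 1736).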

How the data were processed

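B cells of spleen and Peyer's patches from 18 libraries (6 groups of 3) were sequenced as polyA RNA. The authors trimmed reads with cutadapt 2.3 and aligned them with STAR 2.7.8a to GRCm38. They deposited estimated counts per gene from RSEM 1.3.3, with FastQC 0.11.8 and MultiQC 1.7 as quality control. The deposited expected counts are whole numbers. Reads of BALB/cJ mice were aligned to a C57BL/6 reference whose heavy-chain constant regions differ in allotype. This could affect assignment of *Ighm* and *Ighd* reads and of reads of the class-switched constant regions. Because the share of switched counts differed between groups, the effect on the share of *Ighm* plus *Ighd* need not be equal, and it was not tested. The library kit does not mark strand.

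The counts were tested with edgeR 4.0.16 in R 4.3.3 (TMM, filterByExpr with a minimum count of 10, robust quasi-likelihood F test, Benjamini-Hochberg adjustment over all tested genes), using the libraries of the groups compared. DEGs passed an adjusted p of 0.05 with a log2 fold change beyond 0.25 in either direction, and interactions an adjusted p of 0.05 alone. The script was tested on simulated data. CPM levels use TMM over all 18 libraries, and log2 CPM a prior count of 2. The *Ighd* to *Ighm* ratio was tested by exact permutation. Library totals were 14177253 to 30052297, and 3 counts equal 0.0998 to 0.212 CPM. No 2 libraries of a group held identical values. The labels number biological replicates, but do not say whether spleen and PP libraries of a number are from the same mouse.

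Named genes were the 4 genes, the 5 closest genes to each with a mean of at least 10 CPM, and most genes of the RNA processing and CD23 lists. Also named were up to 3 leading DEGs of other lists in each direction, and single genes of the T cell, myeloid and plasma cell lists. The genes and lists were chosen with earlier results of these data known. Positions are from an annotation of GRCm38 of another release than the one counted, and promoters from RefSeq. Alternatives were DESeq2 1.42.0, other size factors, no count filter, shared fits, antigen receptor genes left out, a replicate block and each library left out.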

Additional observations from a re-analysis of the deposited data

Results flagged for a closer look

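The effect of sOVA against PBS differed between the tissues for 3 of the 4 genes, by the interaction test of edgeR over 12 libraries. The PP effect minus the spleen effect was -1.31 for *Ighd*, -1.18 for *Zfp318* and -1.36 for *Fcer2a* on the log2 scale. It kept its direction and passed in every leave-one-out fit, where *Ighd* ranged from -1.45 to -1.21, *Zfp318* from -1.27 to -1.07 and *Fcer2a* from -1.51 to -1.25.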

How the results depend on the processing

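Most member results kept their direction and side of the threshold. Without the low-count filter, *Fcer2a* passed for sOVA against PBS in spleen (-0.26, edgeR adjusted p = 0.00616) and *Ighm* for OVA NP against sOVA in spleen (0.34, adjusted p = 0.04), and DESeq2 also called the latter (0.35). Only levels moved with scaling: *Ighm* in spleen sOVA was 3125 CPM with RLE size factors, and *Ighd* and *Zfp318* in spleen PBS were 1609 and 563.8 CPM with raw totals. In no comparison did all 3 pairs of the same replicate number deviate together (mean correlations -0.186 to 0.051), nor did every sample correlate best with its own number, and the labels do not say whether a number marks a shared mouse. With the replicate block, *Fcer2a* in PP against spleen after OVA NP was -0.31 and no longer passed (adjusted p = 0.0632), DEGs of PP OVA NP against sOVA fell from 4697 to 3119, and genes of the OVA NP interaction from 734 to 429; no other count moved by more than 1.5 times and no other member call changed.

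Leaving out 1 library at a time gave for spleen OVA NP against PBS *Ighm* -0.013 to 0.10, below 0 without PBS replicate 3, for spleen OVA NP against sOVA *Zfp318* -0.11 to 0.063, and for the OVA NP interaction *Ighd* -0.070 to 0.14, none of which passed. For spleen sOVA against PBS the ranges were -0.35 to -0.24 for *Ighm*, -0.33 to -0.17 for *Zfp318* and -0.27 to -0.17 for *Fcer2a*, which passed without sOVA replicate 1, and for PP against spleen after OVA NP -0.38 to -0.23 for *Fcer2a*. DEG counts were 33 for spleen OVA NP against sOVA, 230 without the filter, 83 with DESeq2 and 0 to 40 without a library. For PP OVA NP against PBS they were 0, 146 without the filter, 1 in the fit of all 9 PP libraries, 150 with DESeq2 and 0 to 8 without a library. The OVA NP interaction had 1256 genes with DESeq2 and 291 to 945 without a library, and the sOVA interaction had 1131, 1823 with DESeq2 and 655 to 1279 without a library. With 3 libraries a group, the 6 exact tests of the ratio between treatments cannot pass 0.05, unlike that between tissues.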

Other observations

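Partners of the B cell receptor were mixed where *Ighm* and *Ighd* fell. In the PPs after sOVA against PBS, 3 of 12 were lower DEGs (edgeR) and 1 was higher, against 13.9% and 13.5% of all genes. The lambda light-chain gene *Iglc2* fell by 0.68 (SE 0.07, adjusted p = 0.00023), the inhibitory co-receptor *Cd22* by 0.48 and the signaling chain *Cd79a* by 0.39, and the kinase *Syk* rose by 0.34. Of 7 marginal zone genes, 5 were lower, against the same 13.9%, led by *Cd9* (-1.36), *Cd1d1* (-1.01) and *S1pr3* (-0.71).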
